A study of Mus musculus with 22 samples.

Results

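Rora, Nr1d1, Nr1d2, Tmem176a and Tmem176b were chosen by name, and all 5 have a row among the 34047 genes counted by RNA-seq. The chromatin data were read at the same loci, where 67 of 177956 ATAC-seq summit windows and 25 of 74217 peaks had 1 of these genes as the closest gene within 50000 bases. The study asked how conventional dendritic cells (cDCs) divide into subsets, and sorted from mice cDC1s and 2 kinds of cDC2, with and without T-bet. All groups, cDC1s included, came from Tbx21RFP-cre mice 6 to 10 weeks old, which are homozygous for a knock-in at Tbx21, the gene for T-bet. In these mice red fluorescent protein (RFP) reports T-bet expression, so no group comes from mice without the knock-in. Cells were sorted as Lin- CD64- Ly6C- CD11c+ MHCII+, then as CD11b- XCR1+ for cDC1s and CD11b+ XCR1- for cDC2s, with RFP+ cells taken as T-bet+ and RFP- cells as T-bet-, and mice were pooled for each RNA library. The spleen gave 3 RNA libraries of each subset. The mesenteric lymph nodes (MLN), which drain the intestine, gave 3 of cDC1s and 2 of each cDC2 subset. ATAC-seq, which reads accessible chromatin by transposase cutting, gave 2 spleen libraries of each subset. The ATAC-seq and RNA-seq libraries are separate, so no value is paired between the assays.

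Rora encodes RORα, a nuclear receptor that activates transcription, while Nr1d1 and Nr1d2 encode REV-ERBα and REV-ERBβ, which lack the activating helix and repress transcription by recruiting NCoR and HDAC3. The receptors of both groups bind the same DNA element, an AGGTCA core behind an A/T-rich flank, and together they set the expression of Arntl (BMAL1) and other genes of the circadian clock. RORα is best known in immune cells for its part in the development of innate lymphoid cells, and the REV-ERBs for repression of inflammatory genes in macrophages. Tmem176a and Tmem176b are neighbouring genes that encode membrane-spanning proteins of the MS4A-like superfamily, located in intracellular vesicles and known for cation conductance and for high expression in immature dendritic cells.

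Rora lies on chromosome 9 at positions 68653786 to 69388246, plus strand (mm10, GENCODE M21), and is the longest of the 5 loci. Nr1d1 lies on chromosome 11 at 98767932 to 98775333, minus strand, and Nr1d2 on chromosome 14 at 18204054 to 18239127, minus strand. Tmem176a (chromosome 6, 48840919 to 48847071, plus strand) and Tmem176b (chromosome 6, 48833818 to 48841496, minus strand) point away from each other and overlap at their starts. Whether reads were counted by strand is not given in the sources used here, so overlapping exons on opposite strands can share reads. Tmem176a and Tmem176b share 81 exon bases, which is 2.13% of Tmem176a and 3.42% of Tmem176b. Nr1d1 shares 263 exon bases (8.55%) with Thra, which encodes thyroid hormone receptor α, and Rora shares 82 (0.627%) with the antisense gene Gm15511.

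Between 20993220 and 29006549 reads per RNA library fell on genes. The labels held for Tbx21, at 21.7 ± 4.02 CPM (counts scaled to library size with edgeR's TMM over all 16 libraries; mean ± SD, n = 3) in spleen T-bet+ cells, 1.40 ± 1.05 in T-bet- cells and 0.757 ± 0.557 in cDC1s. Summed markers of cDC1s (Xcr1, Clec9a, Irf8, Batf3, Cadm1) reached 2850 to 5880 CPM in cDC1 libraries and at most 625 in cDC2 libraries, and those of cDC2s (Sirpa, Itgam, Irf4, Cd209a, Clec10a) were 464 to 3000 in cDC2 and at most 52.8 in cDC1 libraries. The libraries also differed by something other than subset. Each library's deviations from the spleen mean were correlated with the GC content of the most GC-rich short stretch of a gene's longest transcript. Spearman's rho across 7584 genes was positive in T-bet+ replicates 1, 2 and 3, T-bet- replicate 3 and replicates 1 and 2 of cDC1s. It was negative in T-bet- replicates 1 and 2 and replicate 3 of cDC1s. Over the spleen libraries rho ran from -0.457 to 0.325. In MLN, cDC1 replicates 2 and 3 and T-bet- replicate 2 were positive, and cDC1 replicate 1, both T-bet+ libraries and T-bet- replicate 1 negative (-0.313 to 0.249). This library class, which is the sign of rho, is given below where it moves with a result. The spleen and MLN libraries differ in more than the organ if they were run on different sequencers, which is not given per library, so tissue and run cannot be told apart. P-values measure the spread between these libraries. In bulk samples, fewer cells of a type and less RNA per cell cannot be told apart.

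Tmem176a and Tmem176b were among the most abundant transcripts of cDC2s and were far lower in spleen cDC1s. In spleen, Tmem176a was at 1294, 1719 and 1102 CPM in the 3 T-bet- libraries, 487.5, 363.7 and 597.1 in the T-bet+ libraries and 59.0, 33.8 and 75.3 in cDC1s. Tmem176b was at 2340, 2770 and 2004 CPM in T-bet- cells, 932.2, 734.6 and 1063 in T-bet+ cells and 71.6, 45.7 and 102 in cDC1s. The 3 subsets did not overlap for either gene, and the order was T-bet- cDC2, then T-bet+ cDC2, then cDC1. By pairs of subsets, 13.9% of the 14377 genes tested in spleen had every T-bet+ library below every T-bet- library. For 21.9% of genes every T-bet+ library lay above every cDC1 library, and for 17.1% every T-bet- library did. In MLN, Tmem176a was at 1493 and 1390 CPM in T-bet- cells, 494.1 and 1066 in T-bet+ cells and 66.8, 346.8 and 320.0 in cDC1s. Tmem176b was at 2298 and 2337 CPM in T-bet- cells, 951.9 and 1732 in T-bet+ cells and 110.1, 464.3 and 431.1 in cDC1s. The order was the same in MLN, again without overlap, but the T-bet+ libraries lay far apart and cDC1 replicate 1 stood well below the others. Of the 15298 genes tested in MLN, 20% had every T-bet+ library below every T-bet- library. The share above every cDC1 library was 20.7% for each cDC2 subset.

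**Figure D1:**
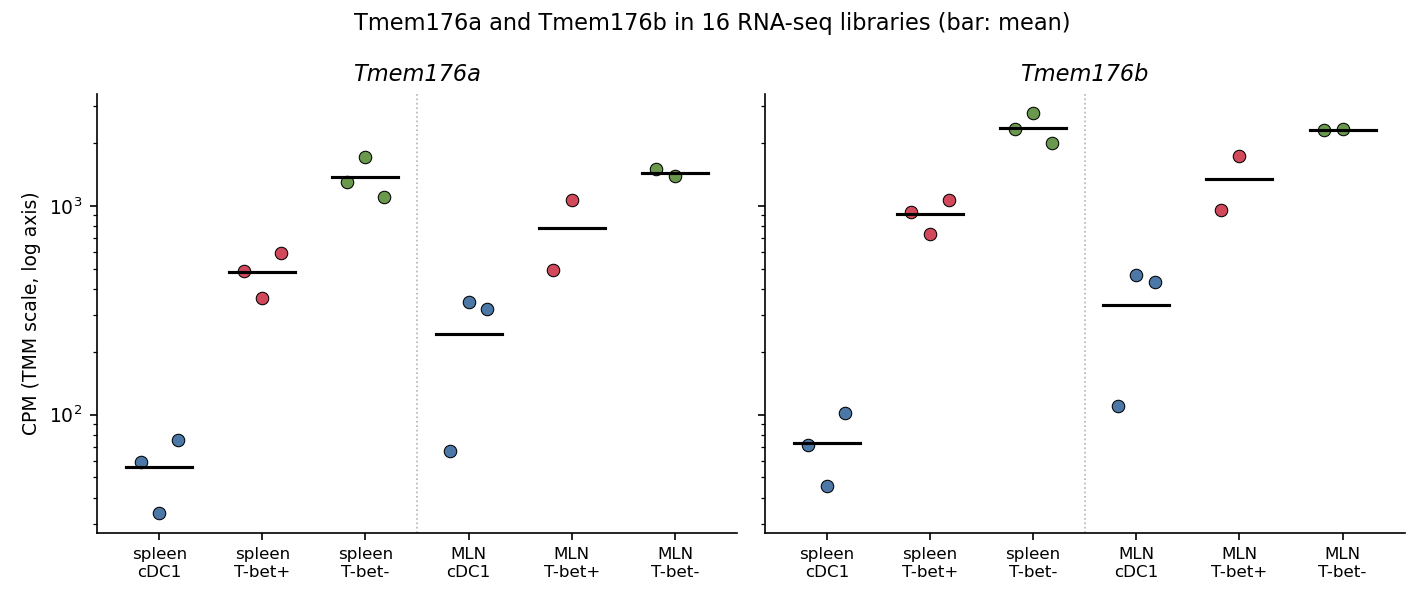
Tmem176a and Tmem176b in each RNA-seq library, in CPM on a log axis, with points for libraries and bars for group means. T-bet- cDC2 libraries lie highest in both tissues, and the 3 spleen cDC1 libraries lie at 33.8 to 102 CPM, below every cDC2 library.

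Per exon length, Tmem176b ranked 37 of 19698 genes by mean level in spleen T-bet- cDC2s (1000 ± 162 RPKM, CPM per kilobase of exon, n = 3), 117 in T-bet+ cDC2s (383.8 ± 69.8) and 1545 in cDC1s (30.9 ± 11.9). Tmem176a ranked 125, 373 and 2896 in the same groups. Both genes together took 0.301% to 0.402% of all gene reads in the spleen T-bet- libraries and 0.00780% to 0.0175% in spleen cDC1s. Tmem176b was the higher of the pair per length in every library. The ratio of Tmem176b to Tmem176a per length was 2.59 to 3.25 in the spleen cDC2 libraries and 1.95 to 2.18 in spleen cDC1s. In MLN it was 2.47 to 3.10 in cDC2s and 2.15 to 2.65 in cDC1s, with the highest cDC1 value in replicate 1, so in MLN the ranges overlap.

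Between spleen cDC2 subsets, both genes were lower in T-bet+ cells. Tmem176a fell 2.84-fold (log2 fold change -1.51, SE 0.319, adjusted p = 0.0260, edgeR quasi-likelihood test) and Tmem176b fell 2.60-fold (log2 fold change -1.38, SE 0.289, adjusted p = 0.0249). They were the 2 of the 5 genes that passed an adjusted p of 0.05, where 5.38% of the 14377 genes tested passed. The call rested on few libraries. It was lost for both genes without T-bet+ replicate 1, 2 or 3 or T-bet- replicate 1 or 2 (log2 fold change -1.69 to -1.24, adjusted p up to 0.117), and with library class as a term (Tmem176a -1.10, adjusted p = 0.0669; Tmem176b -0.99, adjusted p = 0.0558). Within the class that holds all 3 T-bet+ libraries there is a single T-bet- library, replicate 3, at 1102 CPM for Tmem176a and 2004 CPM for Tmem176b, above each of the T-bet+ libraries, and the other class holds no T-bet+ library.

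In MLN the same comparison gave log2 fold changes of -0.92 for Tmem176a (SE 0.696, adjusted p = 0.765) and -0.82 for Tmem176b (SE 0.616, adjusted p = 0.763). Neither gene passed, and 0.0% of the 15298 genes tested did (edgeR; 1444 genes had an unadjusted p under 0.05, and DESeq2 called 392). Whether the T-bet+ to T-bet- difference itself differed between spleen and MLN was tested in a fit of all 16 libraries, where 0.00595% of 16795 genes passed (1 gene, with 847 at an unadjusted p under 0.05 and 42 by DESeq2). None of the 5 genes was among them, and the difference in log2 fold change was -0.62 for Tmem176a (SE 0.764) and -0.59 for Tmem176b (SE 0.678). Nr1d1, Tmem176a and Tmem176b had every T-bet+ library below every T-bet- library in both tissues, as did 13.9% of all genes tested in spleen and 20% in MLN.

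Against cDC1s, Tmem176a and Tmem176b were higher in both cDC2 subsets of the spleen. Tmem176a was 8.63-fold higher in T-bet+ cDC2s (log2 fold change 3.11, SE 0.338, adjusted p = 0.000224) and 24.5-fold higher in T-bet- cDC2s (4.61, SE 0.363, adjusted p = 3.20e-05). Tmem176b was 12.5-fold higher in T-bet+ cDC2s (3.64, SE 0.316, adjusted p = 5.33e-05) and 32.4-fold higher in T-bet- cDC2s (5.02, SE 0.337, adjusted p = 1.19e-05). These 4 differences passed under each alternative run. In spleen, 18.2% of genes passed for T-bet+ cDC2s and 15.9% for T-bet- cDC2s against cDC1s, and 3 of the 5 genes passed in each comparison.

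In MLN, 1 of the same 4 differences from cDC1s passed. Tmem176b was 7.34-fold higher in T-bet- cDC2s than in cDC1s (2.88, SE 0.566, adjusted p = 0.0260), a call lost without cDC1 replicate 2 or 3 or either T-bet- library (adjusted p 0.0525 to 0.156). Tmem176a was 6.27-fold higher in T-bet- cDC2s (2.65, SE 0.634, adjusted p = 0.0522), just short of the threshold. For T-bet+ cDC2s the folds were 3.32 for Tmem176a (adjusted p = 0.154) and 4.16 for Tmem176b (adjusted p = 0.0723), so neither passed by edgeR. Both passed with DESeq2 (adjusted p = 0.0466 and 0.00438), without a filter on low counts (0.000952 and 4.01e-05) and with the number in the library name as a block (0.00185 and 0.000979). For Tmem176a in T-bet- cDC2s these alternatives gave adjusted p of 0.000676, 2.77e-07 and 0.00102. Without cDC1 replicate 1, the low library, Tmem176a passed for T-bet- cDC2s (log2 fold change 2.21, adjusted p = 0.0300) and Tmem176b for T-bet+ cDC2s (1.65, adjusted p = 0.0398). In MLN, 6.22% of genes passed for T-bet+ and 5.79% for T-bet- cDC2s against cDC1s.

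Across tissues, the 2 genes were lower in spleen cDC1s than in MLN cDC1s, 4.36-fold for Tmem176a (log2 fold change -2.13, SE 0.504, adjusted p = 0.0178) and 4.58-fold for Tmem176b (-2.20, SE 0.448, adjusted p = 0.00881), in a comparison where 11.7% of 16795 genes passed. MLN cDC1 replicate 1 was the only MLN cDC1 library of the lower GC class, with a rho of only -0.0341. It was at 66.8 CPM for Tmem176a, within the range of spleen cDC1s. For Tmem176b it was at 110.1 CPM, above the highest spleen cDC1 library (102 CPM). Without MLN cDC1 replicate 1 the differences were -2.51 (adjusted p = 0.000914) and -2.55 (adjusted p = 0.000499) by edgeR. The Tmem176a call was lost without spleen cDC1 replicate 1 or 2 or MLN cDC1 replicate 2 or 3, and the Tmem176b call without spleen cDC1 replicate 2 (adjusted p = 0.0540). In cDC2s neither gene passed between tissues. Tmem176b differed by -0.56 (SE 0.474) in T-bet+ cDC2s and 0.03 (SE 0.479) in T-bet- cDC2s, where 5.09% and 5.95% of genes passed. Whether the cDC2 to cDC1 difference depends on tissue was tested in a contrast added after the data were seen. For T-bet- cDC2s it was 2.23 larger in spleen for Tmem176b (SE 0.661, unadjusted p = 0.00449, adjusted p = 0.422 by edgeR's quasi-likelihood test) and 2.05 larger for Tmem176a (SE 0.743, adjusted p = 0.651), where 0.0357% of genes passed. Without MLN cDC1 replicate 1 the Tmem176b value was 2.56 with an adjusted p of 0.0483. For T-bet+ cDC2s it was 1.64 for Tmem176b (SE 0.655, adjusted p = 0.506) and 1.43 for Tmem176a (SE 0.736, adjusted p = 0.626), where 0.0893% of genes passed.

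The summed level of monocyte and macrophage markers had the same order as Tmem176a and Tmem176b, though not every marker did. The sum of 7 such markers (Ly6c2, Fcgr1, Mertk, Adgre1, C1qa, C1qb, Vcam1) was 880 to 1220 CPM in spleen T-bet- cDC2s, 419 to 499 in T-bet+ cDC2s and 96.8 to 183 in cDC1s. In MLN it was 1100 to 1850, 344 to 391 and 83.8 to 211. C1qa, a complement component made by macrophages, was at 181 ± 39.0 CPM in spleen T-bet- cells and 16.1 ± 4.11 in T-bet+ cells (n = 3 each), and at 423 ± 179 and 10.8 ± 11.7 in MLN (n = 2 each). Fcgr1, which encodes the CD64 that the sort excluded, was at 7.04 ± 1.46 and 0.636 ± 0.211 CPM in spleen, and Mertk at 5.03 ± 2.18 and 0.187 ± 0.199. Adgre1, the F4/80 gene, was at 425 ± 113 CPM in T-bet- and 373 ± 37.7 in T-bet+ cells of spleen, but at 89.0 ± 1.98 and 276 ± 121 in MLN. Ly6c2 was highest in cDC1s (4.75 ± 1.11 CPM in spleen and 9.49 ± 3.21 in MLN), and Vcam1 was lowest in T-bet+ cDC2s in both tissues. No library had more than 1 of the 7 at 0. Summed granulocyte markers (S100a8, S100a9, Ly6g, Csf3r, Mpo) were 163 to 186 CPM in spleen T-bet- cDC2s, 50.6 to 68.1 in T-bet+ cDC2s and 19.4 to 26.3 in cDC1s, with Ly6g at a group mean of 0.165 CPM or less. The part of these cells in the Tmem176a and Tmem176b levels was not tested.

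Rora was higher in cDC2s than in cDC1s in both tissues and did not separate the cDC2 subsets. In spleen it was at 5.31, 6.83 and 3.95 CPM in T-bet+ cells, 3.42, 5.09 and 3.89 in T-bet- cells and 1.01, 0.988 and 0.193 in cDC1s. In MLN it was at 6.74 and 8.06 CPM in T-bet+ cells, 5.01 and 8.30 in T-bet- cells and 1.01, 1.91 and 1.86 in cDC1s. Every cDC2 library lay above every cDC1 library, while the T-bet+ and T-bet- ranges overlapped. Of all genes tested in spleen, 21.9% had every T-bet+ library above every cDC1 library, and 17.1% every T-bet- library. In MLN the share was 20.7% for each cDC2 subset. Per exon length Rora was a low transcript, at 0.410 ± 0.110 RPKM in spleen T-bet+ cDC2s and rank 10036 of 19698 genes.

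In spleen, Rora was 7.26-fold higher in T-bet+ cDC2s (log2 fold change 2.86, SE 0.565, adjusted p = 0.00667) and 5.58-fold higher in T-bet- cDC2s (2.48, SE 0.560, adjusted p = 0.0146) than in cDC1s. In MLN it was 4.76-fold higher in T-bet+ cDC2s (2.25, SE 0.405, adjusted p = 0.0185) and 4.36-fold higher in T-bet- cDC2s (2.12, SE 0.404, adjusted p = 0.0233). Between cDC2 subsets the log2 fold change was 0.38 in spleen (SE 0.517, adjusted p = 0.744) and 0.13 in MLN (SE 0.437, adjusted p = 0.960). The spleen call in T-bet- cDC2s was lost when only T-bet- cDC2s and cDC1s were fitted (2.44, adjusted p = 0.0513), and the MLN call in T-bet- cDC2s with the replicate number as a block (2.24, adjusted p = 0.0516). The MLN calls were lost without cDC1 replicate 2 or 3 or either library of the cDC2 subset compared (adjusted p 0.0529 to 0.0788, and 0.156 for T-bet- cDC2s without their replicate 2). The difference between tissues did not pass in any subset, with log2 fold changes from -1.11 (cDC1, SE 0.502, adjusted p = 0.153) to -0.46 (T-bet+ cDC2, SE 0.519).

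Rora also marks innate lymphoid cells, which the sort should exclude. Of 9 markers listed for them 8 were counted, with a summed level of 317 to 666 CPM in spleen T-bet- cDC2s, 476 to 624 in T-bet+ cDC2s and 234 to 675 in cDC1s. Nearly all of it was Kit and Il7r. Gata3 had group means of at most 0.983 CPM, Thy1 of at most 0.297 and Il22 of at most 0.908. Summed T cell markers were 0.387 to 20.8 CPM and NK cell markers at most 1.95 CPM over all libraries. The part of innate lymphoid cells in the Rora level was not tested.

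Nr1d1 was close to the detection limit in T-bet+ cDC2s and cDC1s of the spleen and had its highest values in T-bet- cDC2s. It had 74, 19 and 34 reads in spleen T-bet- libraries (3.57, 0.977 and 1.28 CPM), 0, 9 and 7 reads in T-bet+ libraries (0, 0.338 and 0.291 CPM) and 0, 16 and 3 reads in cDC1s (0, 0.659 and 0.145 CPM). In MLN it had 164 and 70 reads in T-bet- cDC2s (5.52 and 2.68 CPM), 33 and 24 in T-bet+ cDC2s (1.24 and 0.926 CPM) and 21, 2 and 10 in cDC1s (0.852, 0.0867 and 0.364 CPM). Within each tissue, all T-bet- libraries lay above all others. In spleen, 13.9% of genes tested had all T-bet- libraries above all T-bet+ libraries, and 17.1% above all cDC1 libraries. The MLN shares were 20% and 20.7%. No Nr1d1 comparison passed in the edgeR fits described, and some passed under alternatives. The log2 fold change from T-bet- to T-bet+ cDC2s was -3.17 in spleen (SE 1.30, adjusted p = 0.229) and -1.97 in MLN (SE 0.893, adjusted p = 0.557), and T-bet- cDC2s over cDC1s gave 2.83 in spleen (SE 1.28, adjusted p = 0.182) and, in MLN, 3.28 (SE 0.822, adjusted p = 0.0609). This MLN difference passed with DESeq2 (3.25, adjusted p = 0.00367), without a filter (adjusted p = 0.000494), with the newer dispersion estimate (0.0238), with library class (0.0484) or the library name number (0.0150) as a term, and without MLN cDC1 replicate 1 (4.24, adjusted p = 0.0345). In spleen the T-bet+ to T-bet- difference passed without a filter (-3.18, adjusted p = 0.0385), and that of T-bet- cDC2s to cDC1s without a filter (0.0487) and with the newer dispersion estimate (0.0478). The marker levels given above for monocytes and macrophages are highest in the same T-bet- groups, and their part in the Nr1d1 level was not tested. Thra, which shares exon bases with Nr1d1, was at 0.0376 to 1.80 CPM over all libraries.

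Nr1d2 was the highest of the receptor transcripts per length in spleen, and its levels overlapped between the cDC2 subsets in both tissues. In spleen it was at 18.3, 13.7 and 9.43 CPM in T-bet+ cells, 7.90, 6.37 and 20.7 in T-bet- cells and 7.17, 10.6 and 2.32 in cDC1s. In MLN it was at 8.66 and 4.67 CPM in T-bet+ cells, 2.89 and 7.31 in T-bet- cells and 2.52, 2.47 and 3.79 in cDC1s. The lowest spleen values were those of T-bet- replicates 1 and 2 and replicate 3 of cDC1s, the libraries of the lower GC class, together with cDC1 replicate 1. No comparison passed for Nr1d2, with log2 fold changes of 0.24 between spleen cDC2 subsets (SE 0.588, adjusted p = 0.860), 1.05 for T-bet+ cDC2s over cDC1s in spleen (SE 0.596, adjusted p = 0.280) and 1.22 in MLN (SE 0.485, adjusted p = 0.193). In MLN it passed for T-bet+ cDC2s with the library name number as a block (1.42, adjusted p = 0.0364). With library class as a term, the spleen T-bet- to cDC1 difference was 1.41 and passed (adjusted p = 0.0150), against 0.80 without it (adjusted p = 0.424). Spleen levels were above MLN levels on the log2 scale by 1.19 in cDC1s (SE 0.578, adjusted p = 0.181) and 1.05 in T-bet+ cDC2s (SE 0.651, adjusted p = 0.311).

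**Figure D2:**
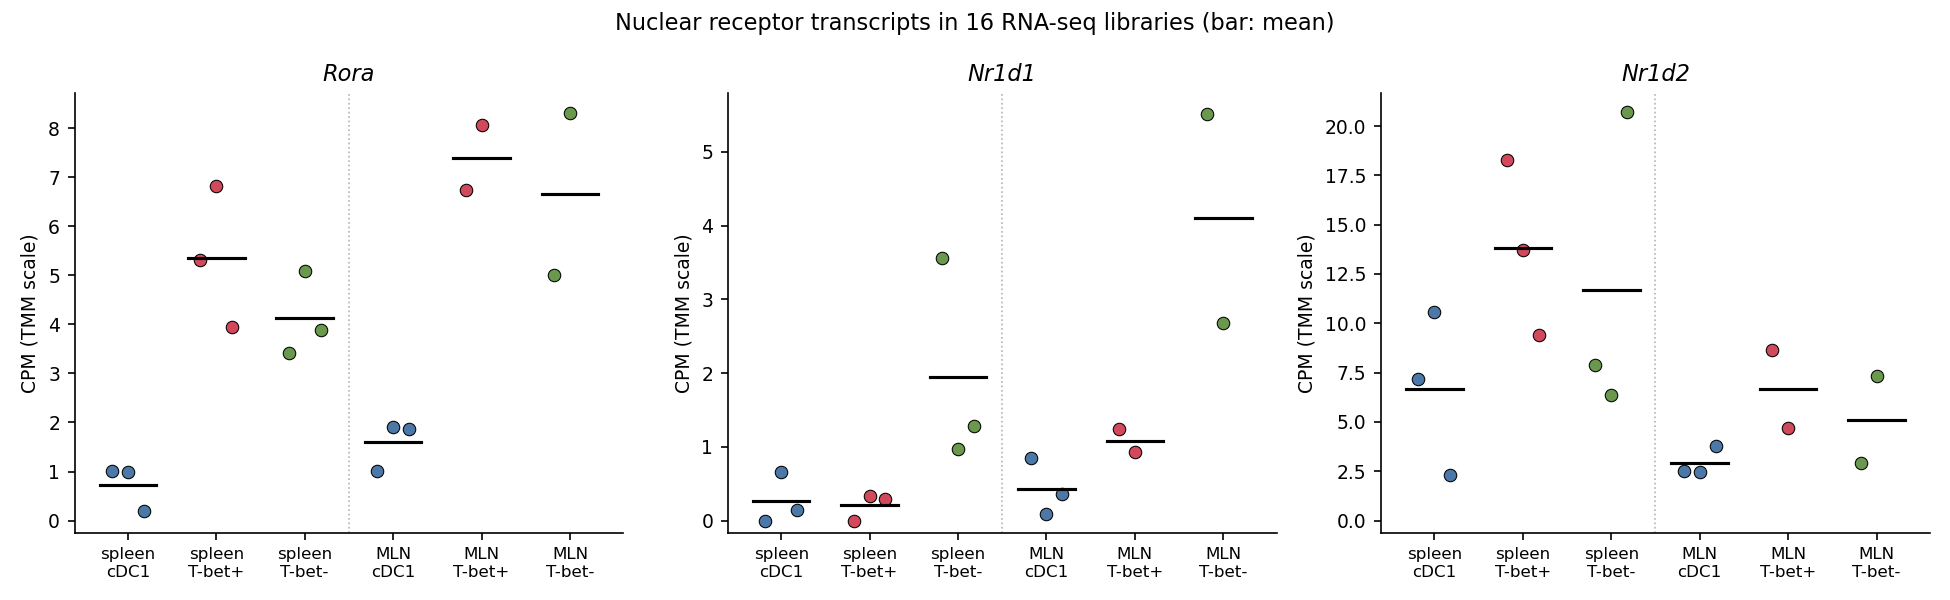
Rora, Nr1d1 and Nr1d2 in each RNA-seq library, in CPM on linear axes, with points for libraries and bars for group means. Rora separates cDC2s from cDC1s in both tissues, Nr1d1 is highest in T-bet- cDC2s, and Nr1d2 in spleen T-bet- cDC2s runs from 6.37 to 20.7 CPM.

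**Figure D3:**
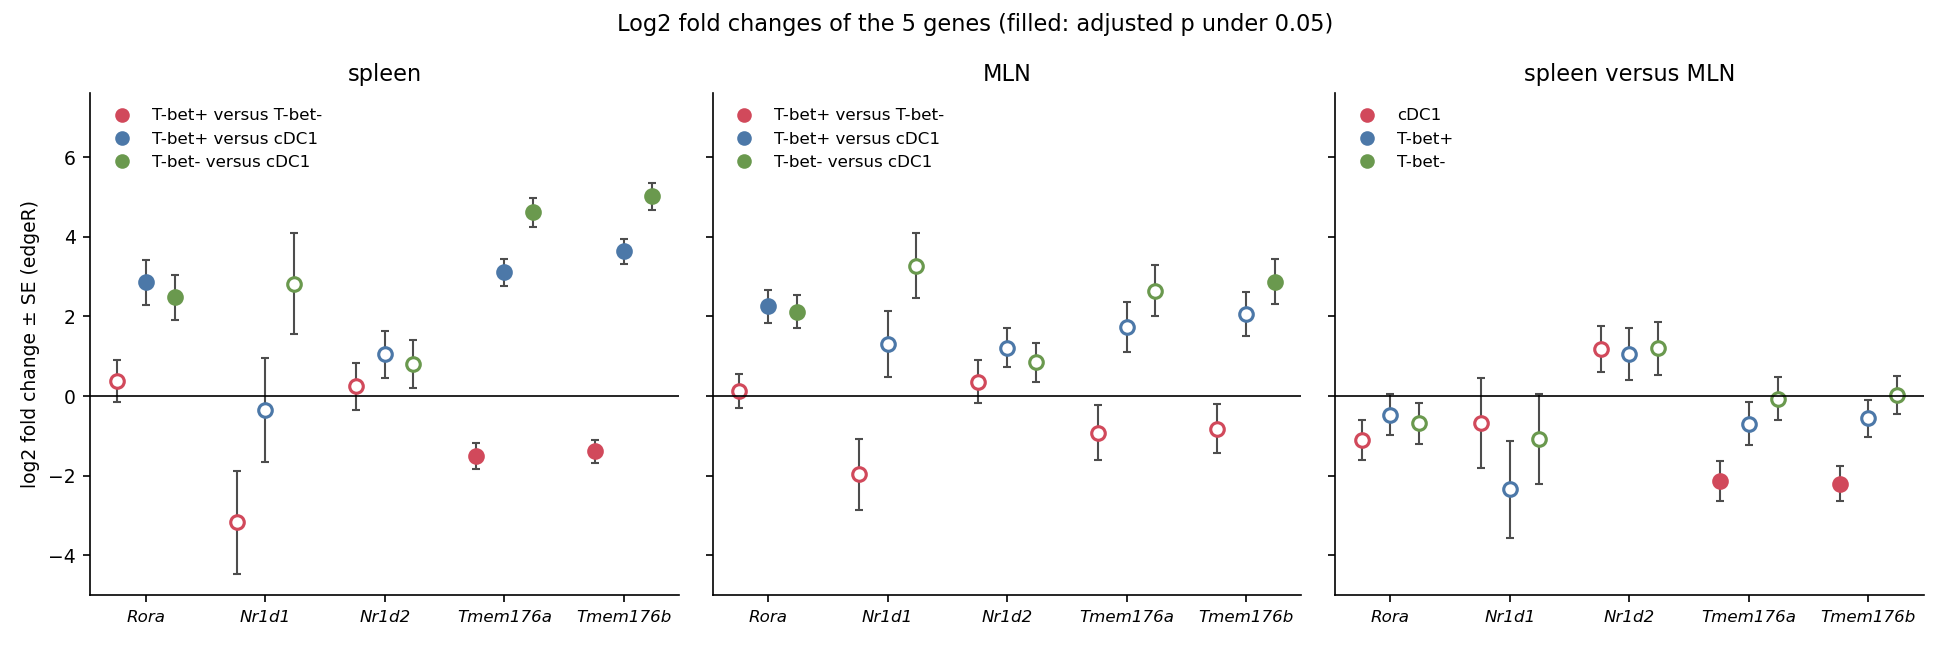
Log2 fold change (first named group over the second) with its SE for the 5 genes in 9 RNA comparisons, with filled points for an adjusted p under 0.05 (edgeR). Nr1d1 has the widest error bars, and Nr1d2 has no filled point.

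The genes that work with these receptors in the clock and in repression were described from lists of 33 genes, of which 30 were tested in spleen and 29 in MLN. Between spleen cDC2 subsets 1 passed and 0 passed between MLN cDC2 subsets (4 and 5 at an unadjusted p under 0.05), with a median log2 fold change of 0.143 and -0.371 against -0.0134 and -0.0167 over all genes. The gene was Ppargc1b, which encodes the coactivator PGC-1β. It had 154, 31 and 89 reads in spleen T-bet- libraries and 0 in each T-bet+ library, at least 104-fold lower when 3 reads over the group are taken as the limit. In MLN it had 241 and 164 reads in T-bet- cells and 0 and 21 in T-bet+ cells.

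Against spleen cDC1s, 5 of the 30 list genes tested rose for each cDC2 subset and none fell, a share close to the 18.2% and 15.9% of all genes that passed in these comparisons. Bhlhe40, a clock-controlled repressor that dendritic cells express highly, rose in each of the 4 comparisons of cDC2s with cDC1s, by a log2 fold change of 2.42 (T-bet+) and 2.84 (T-bet-) in spleen and 1.95 and 2.89 in MLN (adjusted p 8.61e-06 to 0.0483, edgeR). It reached 1709 ± 224 CPM in spleen T-bet- cDC2s and 239.6 ± 11.9 in cDC1s. Dbp, a PAR bZIP factor driven by the clock, was 2.16 higher in spleen T-bet+ cDC2s (SE 0.413, adjusted p = 0.00564), at 7.24 ± 0.166 CPM against 1.62 ± 0.484 in cDC1s, and Per1, a clock repressor, was 1.75 higher in spleen T-bet- cDC2s (SE 0.462, adjusted p = 0.0302). The Per1 call was lost by edgeR with library class as a term (1.09, adjusted p = 0.0712), with the replicate block (0.0946) and with only the compared subsets fitted (0.0863). The others that passed were Tef, Fbxl21 and Ppargc1a for T-bet+ cDC2s (with the replicate block, adjusted p = 0.0969 for Tef and 0.0607 for Fbxl21) and Fbxl21, Ppargc1a and Ppargc1b for T-bet- cDC2s. In MLN Bhlhe40 was the 1 list gene that passed for each subset. Its MLN call in T-bet+ cDC2s was lost with library class as a term (2.52, adjusted p = 0.0845, edgeR).

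The core clock genes did not pass between the cDC2 subsets. Arntl, the shared target of RORα and the REV-ERBs, was at 8.73 ± 4.57 CPM in spleen T-bet- cells, 13.8 ± 0.757 in T-bet+ cells and 8.20 ± 3.25 in cDC1s, and its log2 fold change between cDC2 subsets was 0.66 (SE 0.408, adjusted p = 0.435). Clock, Per2, Per3, Cry1 and Cry2 gave -0.34, 0.65, 0.76, 1.00 and 0.48 in that comparison, with adjusted p of 0.633 to 0.724. Per1 gave -0.68 there (adjusted p = 0.476, edgeR). Between MLN cDC2 subsets, Arntl, Clock, Per1, Per2, Per3, Cry1 and Cry2 gave -0.47, 0.58, -1.16, 0.33, -0.56, 0.905 and -0.37, and none passed. Npas2 and Bhlhe41 were at group means of at most 0.178 CPM. The corepressor genes Ncor1 (0.19) and Hdac3 (-0.09) did not pass either, and Rorb and Thrb had group means of at most 1.24 and 0.770 CPM. Between tissues Nfil3, a repressor that competes with Dbp, was higher in spleen than in MLN by 3.02 in cDC1s (adjusted p = 0.0172) and 3.14 in T-bet+ cDC2s (adjusted p = 0.0474), and Dbp by 1.83 in T-bet+ cDC2s (adjusted p = 0.0487). Csnk1e, a clock kinase gene, and Tbl1xr1, a corepressor subunit gene, were higher in spleen cDC1s by 1.28 (SE 0.311) and 0.98 (SE 0.292), and both passed. Ncoa2, a coactivator gene, was lower in spleen in cDC1s (-1.20, adjusted p = 0.0473) and in T-bet- cDC2s (-1.62, adjusted p = 0.0302). The calls on Bhlhe40, Dbp and Ppargc1a in spleen T-bet+ cDC2s and on Bhlhe40 in spleen T-bet- cDC2s, all against cDC1s, held without any 1 library, and each other list call named here was lost without at least 1. The time of day at which the mice were killed is not given in the sources used here.

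The patterns most like each gene were read from Pearson's r of log2 CPM over the 16 libraries, which share subset, tissue and library class. Tmem176a and Tmem176b were closest to each other (r = 0.996), followed by Ctsh, which encodes cathepsin H (0.980 and 0.979), then H2-M2 for Tmem176a (0.978) and Prdm1 for Tmem176b (0.978). Rora was closest to Spire1 (0.974), Tmod2 (0.954) and Plxnd1 (0.938). Nr1d1 was closest to Casp8 (0.897), Trdmt1 (0.866) and Tsga10 (0.865), and Nr1d2 to Il17ra (0.937), Abhd15 (0.934) and Ptp4a1 (0.930). Between the receptors, r over all libraries was not always close to r within a tissue, and these differences were not tested. Rora with Nr1d2 gave 0.467 over all 16 libraries, but 0.743 within the 9 of spleen and 0.754 within the 7 of MLN. Rora with Nr1d1 gave 0.416 over all libraries, 0.266 in spleen and 0.578 in MLN, and Nr1d1 with Nr1d2 gave -0.0689, 0.0747 and 0.343. Rora with Tmem176a and Tmem176b gave 0.811 and 0.836.

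In the chromatin data, windows of 150 bases around each peak summit held 7270164 to 10081555 reads per library. Rora had 39 of the 67 windows, all in introns. Nr1d1 had 12 (8 within 2000 bases of an annotated start and 4 intergenic), Nr1d2 had 8 (3 near a start and 5 intronic), Tmem176a had 3 in exons and Tmem176b had 5 (2 near a start and 3 intergenic). No window lay over the shared start region of Tmem176a and Tmem176b. A window was called where the adjusted p was under 0.01 and the absolute log2 fold change over 0.5 (edgeR). Of the 63 windows tested, 2 were called between T-bet+ and T-bet- cDC2s, where 6.28% of all 166547 windows were. Against cDC1s, 10 were called in T-bet+ cDC2s (4 higher, 6 lower) and 7 in T-bet- cDC2s (3 higher, 4 lower), beside 23.0% and 17.9% of all windows. These shares are at or below the background, and what follows describes single windows.

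The 5 windows below are all called ones. They are shown as the called window nearest the Nr1d1 start, the called Tmem176b window with the largest difference, the window of each of the Rora peaks with called windows that had the highest mean level in a subset, and the 1 called Nr1d2 window. Sequences are mm10, from the RefSeq genome, on the strand of the gene, and capitals mark matches to the ETS core GGAAGT or the RUNX core TGTGGT on either strand. They lie at chr11:98775337-98775486 (Nr1d1, minus strand), chr6:48839139-48839288 (Tmem176b, minus strand), chr9:69336224-69336373 and chr9:69126104-69126253 (Rora, plus strand) and chr14:18231537-18231686 (Nr1d2, minus strand).
Nr1d1 window 78 bases upstream: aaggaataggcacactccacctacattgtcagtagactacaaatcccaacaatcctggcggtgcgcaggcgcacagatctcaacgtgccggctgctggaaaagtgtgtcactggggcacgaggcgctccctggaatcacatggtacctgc
Tmem176b window at 2283 bases: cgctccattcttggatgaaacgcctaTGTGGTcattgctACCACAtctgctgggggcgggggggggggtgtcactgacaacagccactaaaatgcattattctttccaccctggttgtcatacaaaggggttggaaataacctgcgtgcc
Rora window at 682512 bases: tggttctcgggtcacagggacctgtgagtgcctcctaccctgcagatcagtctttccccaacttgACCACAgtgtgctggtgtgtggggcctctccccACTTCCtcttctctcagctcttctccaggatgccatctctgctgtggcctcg
Rora window at 472392 bases: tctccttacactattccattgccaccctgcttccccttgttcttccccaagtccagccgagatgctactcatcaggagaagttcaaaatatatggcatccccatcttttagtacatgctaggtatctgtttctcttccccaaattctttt
Nr1d2 window at 7516 bases: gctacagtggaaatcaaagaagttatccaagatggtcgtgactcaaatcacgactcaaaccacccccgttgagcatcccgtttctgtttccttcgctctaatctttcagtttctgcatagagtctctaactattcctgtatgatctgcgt

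At Nr1d1, the window that ends next to the start, centred 78 bases upstream of it, was less accessible in T-bet+ cDC2s. It was at 5.11 and 6.06 CPM in T-bet+ cells, 12.3 and 11.4 in T-bet- cells and 11.3 and 12.3 in cDC1s. The T-bet+ libraries lay below all others, and T-bet- cDC2s and cDC1s overlapped. The share of all windows separated in this way was not computed. The log2 fold change was -1.08 against T-bet- cDC2s (SE 0.258, adjusted p = 0.00188) and -1.07 against cDC1s (SE 0.260, adjusted p = 0.000659), and 0.01 between T-bet- cDC2s and cDC1s (SE 0.242). The window centred 181 bases upstream shares bases with it and was also lower in T-bet+ cDC2s. Against cDC1s the difference was -0.92 (SE 0.281, adjusted p = 0.00754). This call was lost without any 1 cDC1 or T-bet+ library, without T-bet- replicate 1 and with DESeq2 (adjusted p = 0.0358). Against T-bet- cDC2s the difference was -0.97 (adjusted p = 0.0116, not called). The 2 strongest Nr1d1 windows, which overlap and are centred 1274 and 1371 bases inside the gene, were at 17.7 to 33.0 CPM over all libraries and were not called. The T-bet+ to T-bet- call at 78 bases was lost without T-bet+ replicate 1 (adjusted p = 0.0283), T-bet- replicate 1 (0.0298) or T-bet- replicate 2 (0.0129). With DESeq2 it was lost too (adjusted p = 0.01005). The call against cDC1s was lost without cDC1 replicate 2 (0.0147) or T-bet+ replicate 1 (0.0110).

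At Tmem176b, 2 overlapping windows inside the gene were more accessible in T-bet+ cDC2s than in cDC1s, and 1 of them also than in T-bet- cDC2s. The one centred 2283 bases from the gene start, 1242 bases downstream of the nearest of its 11 annotated starts and in an intron, was at 9.36 and 10.5 CPM in T-bet+ cells, 5.06 and 2.73 in T-bet- cells and 1.31 and 1.96 in cDC1s. No library of 1 subset overlapped those of another, a separation whose share over all windows was not computed. On the log2 scale T-bet+ cDC2s exceeded T-bet- cDC2s by 1.37 (SE 0.312, adjusted p = 0.00116) and cDC1s by 2.60 (SE 0.362, adjusted p = 1.35e-08), and T-bet- cDC2s were 1.23 above cDC1s (SE 0.401, adjusted p = 0.0149, not called). The T-bet+ to T-bet- call was lost without T-bet- replicate 2 (0.96, adjusted p = 0.120) and with DESeq2 (1.365, adjusted p = 0.0213). The window centred at 2203 bases overlaps it and was at 9.25 and 8.47, 6.66 and 3.14, and 2.14 and 2.61 CPM in the same order (1.90 against cDC1s, SE 0.345, adjusted p = 6.73e-06).

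The strongest Tmem176b window, intergenic and 8844 bases from the gene start beyond its 3' end, had a different order. It was at 20.9 and 21.7 CPM in cDC1s, 17.2 and 14.6 in T-bet+ cells and 13.1 and 10.6 in T-bet- cells. By edgeR, T-bet+ cDC2s gave 0.43 against T-bet- cDC2s (adjusted p = 0.212) and -0.42 against cDC1s (adjusted p = 0.117), neither called. T-bet- cDC2s against cDC1s gave -0.85 (SE 0.214, adjusted p = 0.00134), which was called. This call was lost without either cDC1 library or T-bet- replicate 2 (adjusted p 0.0134 to 0.0636). The 3 Tmem176a windows, over exon sequence at its 3' end, were at 0.653 to 4.15 CPM and none was called.

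At Rora, 2 intronic peaks went in opposite directions between cDC2s and cDC1s. In the peak about the window centred 682512 bases from the gene start, that window was at 16.4 and 13.6 CPM in T-bet+ cells, 9.99 and 8.61 in T-bet- cells and 2.97 and 3.27 in cDC1s. It was above cDC1s by 2.26 in T-bet+ cDC2s (SE 0.284, adjusted p = 7.18e-10) and by 1.57 in T-bet- cDC2s (SE 0.296, adjusted p = 1.97e-05), and the T-bet+ to T-bet- difference was 0.69 (SE 0.243, adjusted p = 0.0499, not called). Its neighbours at 682302 and 682722 bases were at 0.392 to 0.475 CPM in cDC1s and 1.31 to 4.03 CPM in cDC2s, and also passed against cDC1s in T-bet- cDC2s (2.27 and 2.30), and the first of them in T-bet+ cDC2s (2.98). In the peak centred near 472392 bases, cDC1s were higher. That window was at 8.91 and 5.88 CPM in cDC1s, 2.28 and 1.88 in T-bet+ cells and 1.85 and 2.03 in T-bet- cells. The log2 fold changes were -1.83 (SE 0.360, adjusted p = 2.97e-05) and -1.93 (SE 0.366, adjusted p = 2.28e-05) for the 2 cDC2 subsets against cDC1s. The windows at 472177 and 472536 bases were lower in T-bet+ cDC2s than in cDC1s too (-1.48 and -1.58). The calls at 472177 bases and, in T-bet- cDC2s, at 682302 and 682722 bases were each lost without at least 1 library (adjusted p up to 0.0696). They were also lost with DESeq2 (adjusted p 0.0232 to 0.0684). Those on the printed Rora windows and at 472536 bases held. None of the Rora windows tested was called between cDC2 subsets. The window nearest an annotated start, 6923 bases away, was at 1.26 to 4.05 CPM and was not called.

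At Nr1d2, 1 intronic window, 7516 bases from the gene start, was open in cDC1s and near 0 in cDC2s. It held 45 and 32 reads in cDC1s (5.35 and 4.18 CPM), 3 and 2 in T-bet+ cDC2s (0.326 and 0.209 CPM) and 2 and 5 in T-bet- cDC2s (0.247 and 0.506 CPM). The log2 fold change against cDC1s was -4.09 in T-bet+ cDC2s (SE 0.568, adjusted p = 1.31e-08) and -3.58 in T-bet- cDC2s (SE 0.537, adjusted p = 1.58e-07), and no other Nr1d2 window was called.

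**Figure D4:**
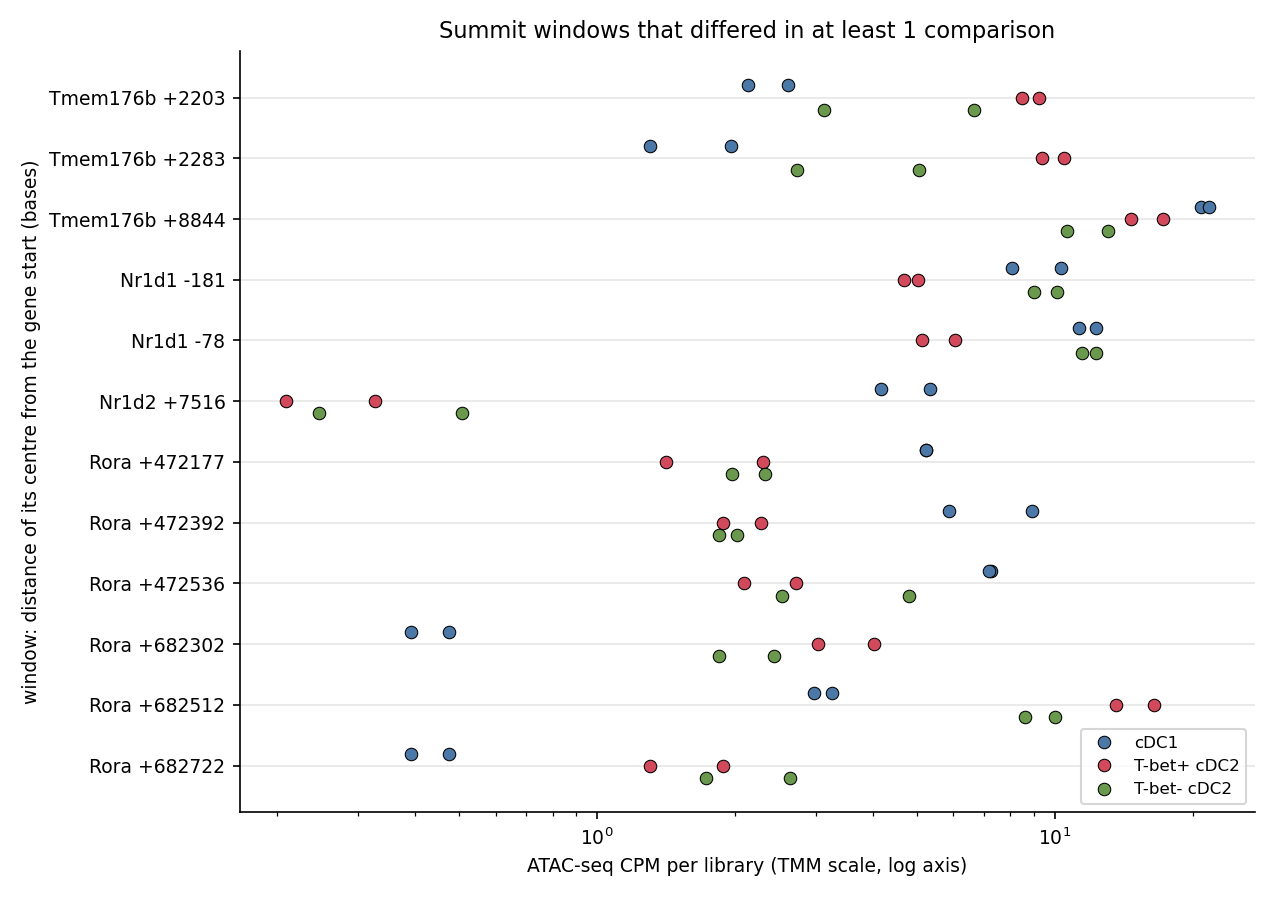
ATAC-seq level of the 12 windows called in at least 1 comparison, in CPM on a log axis with 2 points per subset for its libraries, named by gene and by the distance of the window's centre from the gene start in bases. The Tmem176b windows at 2203 and 2283 bases are highest in T-bet+ cDC2s, the Nr1d1 windows at 78 and 181 bases upstream are lowest there, and the Nr1d2 window is above 4 CPM in cDC1s only.

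Beside the RNA, the loci differ in order. The Nr1d1 window centred 78 bases upstream was lowest in T-bet+ cDC2s. The window overlapping it shared this, and other windows near the start did not. Spleen Nr1d1 RNA was lowest in T-bet+ cDC2s and cDC1s, while cDC1 and T-bet- libraries overlapped in the window at 78 bases. Tmem176b RNA in spleen was lower in T-bet+ cells than in T-bet- cells, and its window at 2283 bases was higher there. Both were higher in T-bet+ cDC2s than in cDC1s. Its window at 8844 bases was lower in T-bet- cDC2s than in cDC1s, where the RNA was higher in T-bet- cDC2s. The Nr1d2 window at 7516 bases was near 0 in cDC2s and open in cDC1s, while Nr1d2 RNA passed in none of the edgeR fits described. Rora RNA and the peak about 682512 bases were both higher in cDC2s than in cDC1s, and the peak about 472392 bases was lower.

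Letters of 5 motifs were searched in all windows on both strands. The nuclear receptor core AGGTCA was in 8 of the 67 windows, where 9.98% of all windows and 16.3% of RefSeq promoters (300 bases, 32851 in all) hold it. By gene, 3 were at Rora, 3 at Nr1d2 and 1 each at Nr1d1 and Tmem176b. The E-box CACGTG, the letters to which CLOCK and BMAL1 bind, was in 2 windows, both at Nr1d1 (2.88% of windows and 7.15% of promoters), and in 1 of these beside an AGGTCA.

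The T-box core GGTGTGA was in 0 (2.40% and 3.98%), the ETS core GGAAGT in 12 (22.2% and 23.8%) and the RUNX core TGTGGT in 14 (14.8% and 16.8%). None of the 12 called windows held the nuclear receptor, E-box or T-box letters, which says only that these letters are not in these windows. Of those printed above, the Tmem176b window held 2 RUNX cores, at bases 27 and 40, and the Rora window at 682512 bases held 1 RUNX core at base 66 and 1 ETS core at base 99.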

How the data were processed

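The labels gave the tissue, subset and replicate number of each RNA-seq and ATAC-seq library, and were followed where a sentence of the methods swaps RFP+ and RFP-. The authors made the RNA counts by aligning reads to mm10 with HISAT2 2.1.0 and counting uniquely aligned reads on GENCODE genes with Rsubread, without normalization. The authors made the ATAC counts from Bowtie2 2.2.5 alignments, with cut positions shifted by strand, in reproducible MACS2 2.1.1.20160309 peaks of all replicates together and in windows of 150 bases around their summits. The deposited peak score is 0 throughout, and the deposited summit values, read as −log10 p from MACS2, were not used. Versions are from the submitters' processing notes.

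Counts were tested with edgeR 4.0.16 in R 4.3.3 by the quasi-likelihood test, two-sided, with TMM scaling, filterByExpr and Benjamini-Hochberg adjustment over all features tested: 1 fit for the 9 spleen libraries, 1 for the 7 MLN libraries, 1 for all 16 (tissue comparisons and differences between tissues) and 1 for the 6 ATAC libraries. Each fit has a mean per group, so groups share 1 estimate of the spread. RNA was called at an adjusted p under 0.05, and ATAC where, beside an adjusted p under 0.01, the log2 fold change was over 0.5 in size. DESeq2 1.42.0 was an alternative. Levels per length used GENCODE M21 exon lengths, which 19698 of the 34047 symbols have. A peak belonged to the closest gene within 50000 bases, and near a start means within 2000 bases. The scripts were tested on simulated counts.

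The 5 genes, the gene lists, the markers and the library class were chosen with earlier results of these data known. Named genes are the 5 genes, list genes that passed, the core clock and corepressor genes, and for each of the 5 the 3 genes of highest r. Contrasts of tissue with cDC1s and edgeR's newer dispersion estimate were chosen after seeing the data. The labels do not say that a replicate number marks a shared animal, day or batch. By correlation of deviations, every same-numbered pair was over 0.1 for cDC1s with T-bet+ cDC2s in spleen (r = 0.17, 0.135 and 0.111) and for no other groups with 3 pairs. No 2 libraries held identical counts. Some items are not reported here.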

Additional observations from a re-analysis of the deposited data

How the results depend on the processing

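With 2 or 3 libraries a group and 3 residual degrees of freedom in ATAC-seq, calls near a threshold moved with single libraries, and low counts limited Nr1d1 and the Nr1d2 window. Library class is confounded in part with subset in both tissues. In MLN both T-bet+ libraries are of the lower class, where replicate 1 is the only cDC1 library. The rho was only -0.0597 for MLN T-bet+ replicate 1 and -0.0341 for MLN cDC1 replicate 1. Of the 5 genes, the number called between spleen cDC2 subsets went from 2 to 0 with the replicate block and to 0 with library class as a term. For MLN T-bet+ cDC2s against cDC1s it went from 1 to 3 (DESeq2), 3 (no filter on low counts) and 4 (replicate block by the number in the library name). For MLN T-bet- cDC2s against cDC1s it went from 2 to 4 (DESeq2), 4 (no filter), 1 (replicate block), 4 (replicate block by library name) and 4 (newer dispersion estimate). Without a filter, 1 gene was called for the difference between tissues of T-bet+ cDC2s over cDC1s and 2 for that of T-bet- cDC2s, against 0 with it. Deviations of same-numbered libraries correlated in spleen cDC1s and T-bet+ cDC2s (0.111 to 0.17) but not in spleen pairs with T-bet- cDC2s (-0.488 to 0.0154) or in ATAC (-0.037 to 0.019). In MLN, with at most 2 pairs, cDC1s and T-bet+ cDC2s gave 0.411 and 0.339, and pairs by library name 0.036 to 0.411. The block changed no other count of calls by over 1.5 times. Windows called between cDC2 subsets went from 2 to 0 (DESeq2), 4 (library size only), 4 (newer dispersion estimate) and 4 (whole peaks). Against cDC1s they went from 10 to 16 (all windows within 50000 bases of the gene body) and 4 (whole peaks) in T-bet+ cDC2s, and from 7 to 11 (within 50000 bases) and 4 (DESeq2) in T-bet- cDC2s. The causes of these moves were not tested.

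With 1 library left out, 0 to 2 of the 5 genes were called between spleen cDC2 subsets, 0 to 2 for MLN T-bet+ and 0 to 4 for MLN T-bet- cDC2s against cDC1s, 0 to 2 between cDC1s of the 2 tissues and 0 to 1 for the difference between tissues of T-bet- cDC2s over cDC1s. For windows the ranges were 0 to 2, 7 to 11 and 3 to 8, in the order T-bet+ against T-bet- cDC2s, T-bet+ cDC2s against cDC1s and T-bet- cDC2s against cDC1s. In the other RNA comparisons the number did not change. Directions that turned belonged to differences that had not passed. With library class as a term, the spleen T-bet+ to T-bet- log2 fold change was -0.22 for Rora and -0.71 for Nr1d2. Tmem176b in T-bet- cDC2s of spleen against MLN was -0.14 (library size only), -0.00118 (no filter) and -0.0753 (replicate block), and -0.0738 to 0.14 with 1 library left out. On leaving out 1 library, Nr1d2 ran from -0.0431 to 0.86 (spleen) and -0.13 to 1.16 (MLN) and Rora from -0.17 to 0.52 (MLN) between cDC2 subsets, Nr1d1 from -0.94 to 1.46 in spleen T-bet+ cDC2s against cDC1s and from -2.54 to 0.30 between cDC1s of the 2 tissues, Tmem176a from -0.25 to 0.0635 in T-bet- cDC2s of the 2 tissues, and the difference between tissues of the cDC2 contrast for Tmem176a from -1.09 to 0.0753.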
